A study of Mus musculus with 3 samples.

Results

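The mitochondrial ribosomal protein genes of the mouse were examined for Setd1a binding in quiescent adult NSCs. They were taken as the protein-coding genes of chromosomes 1 to 19 in GENCODE M21 whose symbols begin with *Mrpl* or *Mrps* followed by a number, which gave 78 of 20807 protein-coding genes, 49 *Mrpl* and 29 *Mrps* genes. The rule used gene symbols and no measured value, though it was set with earlier results of these data known. A gene was counted as having a Setd1a peak when an interval of the peak list came to 1000 bp or less from the start (TSS, transcription start site) of one of its transcripts, measured from the nearer edge of the interval.

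Mitochondria translate the few proteins encoded by their own genome, all of them subunits of the respiratory chain and ATP synthase, on a dedicated ribosome. Its rRNAs are transcribed from mitochondrial DNA, while its proteins are encoded in the nucleus, made in the cytosol and imported, so that building the particle needs the expression of many scattered nuclear genes. Setd1a is the catalytic subunit of a histone methyltransferase complex that methylates lysine 4 of histone H3, a mark of active promoters.

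The libraries were prepared by CUT & RUN, which tethers a nuclease to chromatin through an antibody and sequences the short pieces it frees around the antibody's target. There were 2 Setd1a libraries from independent cultures and 1 IgG library, all labelled WT and day 5. The cells were neural progenitors derived from the dentate gyrus of mice aged 7 to 8 weeks and held without EGF in medium with BMP4 and FGF2, each at 20 ng/ml, which brings cultured NSCs into quiescence. The mice were Hopx-CreERT2::Setd1afl/fl::H2B-GFP, that is, they carried a tamoxifen-inducible Cre under *Hopx* control, floxed *Setd1a* alleles and a fluorescent histone reporter. The floxed alleles and the reporter were thus shared by all the libraries, and they were labelled WT without mention of recombination. No library from cells that lack Setd1a belonged to this experiment, and cells kept in culture under added BMP4 are a model of quiescence outside the tissue.

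The values were the chromosome, start and end of 6969 peaks in mm10, each found in both Setd1a libraries, with no height or score. The peak of a gene is therefore present in or missing from the list and has no measured strength. A missing peak means that none was listed, since read depth is unknown, and the spread between the 2 libraries could not be computed. The 95% Wilson intervals given with shares cover counting error over genes only. As a check of the labelled cell type, peaks lay at 7 of 11 neural stem cell marker genes (63.6%, 35.4–84.8%), against 22.5% of all protein-coding genes. They were *Sox2*, *Nes*, *Gfap*, *Vim*, *Pax6*, *Hes1* and *Id4*, and there was none at *Hopx*, *Sox9*, *Fabp7* and *Slc1a3*. A peak lay over a TSS itself at 3 of the 11 (27.3%, 9.75–56.6%), an interval that included the 17.2% of all protein-coding genes. Of the markers of other cells, 2 of 4 of the oligodendrocyte lineage (*Olig2* and *Pdgfra*) had a peak, against 0 of 4 for neurons, 0 of 4 for microglia and 0 of 3 for endothelium, counts of 0 whose upper limits were 49.0%, 49.0% and 56.1%. The interval of the oligodendrocyte lineage share was 15.0–85.0%, so this check does not tell that lineage from neural stem cells.

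Many of these genes start back to back with a neighbour. The DNA between both start sites can then serve as promoter of both genes, which was not measured here. The stretches between the TSSs of 9 such pairs are printed here, from the GRCm38 (mm10) reference. They were chosen because the peaks described next lay on the first 6. In the last 3 pairs no peak was listed within 1000 bp of a mitochondrial ribosomal protein gene's TSS. Each is written 5′ to 3′ on the strand of the mitochondrial ribosomal protein gene, beginning just after the partner's TSS and ending just before its own. No exon of an annotated protein-coding gene overlapped any of the 9 stretches. Capitals mark matches, on either strand, to short strings recognised by promoter factors, namely the ETS family string CCGGAAG, the NRF1 string GCATGCGC, the YY1 string AAGATGGC, the SP/KLF string GGGCGG, the CCAAT box (its letters are its name), the E-box CACGTG and the THAP11/ZNF143 string ACTACAA. None of these strings contains another, and a match is a description of the letters, not a bound site.
Mrps18b–Ppp1r10 (chr17:35916390-35916433, minus strand): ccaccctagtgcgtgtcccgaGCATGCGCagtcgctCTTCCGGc
Mrpl43–Twnk (chr19:45006443-45006557, minus strand): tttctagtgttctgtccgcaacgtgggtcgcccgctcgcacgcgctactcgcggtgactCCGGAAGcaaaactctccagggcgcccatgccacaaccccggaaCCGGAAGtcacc
Mrps27–Ptcd2 (chr13:99344706-99344785, plus strand): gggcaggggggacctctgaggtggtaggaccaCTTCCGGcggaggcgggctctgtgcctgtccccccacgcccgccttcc
Mrpl2–Klc4 (chr17:46646023-46646228, plus strand): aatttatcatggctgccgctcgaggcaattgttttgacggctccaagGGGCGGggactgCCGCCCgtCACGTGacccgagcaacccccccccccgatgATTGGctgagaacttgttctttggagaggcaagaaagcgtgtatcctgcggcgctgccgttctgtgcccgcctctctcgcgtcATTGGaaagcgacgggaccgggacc
Mrps12–Sars2 (chr7:28741821-28741991, minus strand): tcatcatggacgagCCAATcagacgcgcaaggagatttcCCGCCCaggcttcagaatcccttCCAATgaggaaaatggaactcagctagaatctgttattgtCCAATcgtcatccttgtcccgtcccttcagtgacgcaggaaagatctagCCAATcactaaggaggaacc
Mrpl54–Apba3 (chr10:81266935-81266959, minus strand): acctccaaagccgatctggagggct
Mrps11–Mrpl46 (chr7:78783090-78783118, plus strand): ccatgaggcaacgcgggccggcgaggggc
Mrps18c–Helq (chr5:100798599-100798626, plus strand): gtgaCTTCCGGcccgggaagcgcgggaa
Mrpl40–Hira (chr16:18876863-18877036, minus strand): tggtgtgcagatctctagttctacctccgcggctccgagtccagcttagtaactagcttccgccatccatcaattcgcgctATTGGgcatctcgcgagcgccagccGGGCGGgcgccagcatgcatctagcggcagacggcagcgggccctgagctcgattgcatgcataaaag

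The *Mrps18b*–*Ppp1r10* stretch held an NRF1 and an ETS string, the *Mrpl43*–*Twnk* and *Mrps27*–*Ptcd2* stretches held ETS strings, the *Mrpl2*–*Klc4* stretch held SP/KLF, E-box and CCAAT strings, and the *Mrps12*–*Sars2* stretch held CCAAT and SP/KLF strings. The *Mrpl54*–*Apba3* stretch held none. Among those without a peak, the *Mrps18c*–*Helq* stretch held an ETS string, the *Mrpl40*–*Hira* stretch held CCAAT and SP/KLF strings and the *Mrps11*–*Mrpl46* stretch held none. Of all stretches of at most 300 bp, 9 of 14 with a peak at the mitochondrial ribosomal protein gene and 6 of 9 without held at least 1 string. The 5 with a peak and no string were those of *Mrpl36*, *Mrpl49*, *Mrpl54*, *Mrpl57* and *Mrps7*. GC content ran from 41.9% (*Mrpl32*) to 74.0% (*Mrpl36*) in the stretches of genes with a peak. In those of genes without one it ran from 46.2% (*Mrpl30*) to 79.3% (*Mrps11*).

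Setd1a peaks were found at 28 of the 78 mitochondrial ribosomal protein genes (35.9%, 26.1–47.0%), and at 22.5% (21.9–23.1%) of all protein-coding genes. The peak lay over a TSS itself at 23 genes (29.5%, 20.5–40.4%), against 17.2% of all protein-coding genes. The remaining 50 genes had no peak within 1000 bp. Both subunits of the ribosome were represented, and so were proteins inherited from the bacterial ancestor and proteins added later. The choice of how a peak was given to a gene bore on this share. When each peak was given only to the gene whose TSS lay nearest its midpoint, 18 genes (23.1%) kept one, against 19.3% of all protein-coding genes, and when only peaks of at least 500 bp were counted 16 genes (20.5%) did, against 12.8%.

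Of the *Mrpl* genes, named for the large subunit that joins amino acids, 18 of 49 had a peak (36.7%, 24.7–50.7%). Of the *Mrps* genes, named for the small subunit that reads the mRNA, 10 of 29 did (34.5%, 19.9–52.7%), so that the intervals of both shares overlapped. Some symbols mislead, as the proteins of *Mrps30* and *Mrps18a* sit in the large subunit and that of *Mrps36* was later assigned to the α-ketoglutarate dehydrogenase complex. Grouped by the place of the protein in the ribosome, 18 of 51 large subunit genes (35.3%) and 9 of 26 small subunit genes (34.6%) had a peak. Proteins with a counterpart in the bacterial ribosome and proteins specific to mitochondria did not separate either, with 16 of 46 (34.8%, 22.7–49.2%) and 11 of 31 (35.5%, 21.1–53.1%).

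Among large subunit genes with a bacterial counterpart, peaks lay at *Mrpl2*, whose counterpart lies beside the peptidyl transferase centre, and at *Mrpl12*, the counterpart of the stalk protein that recruits translation factors. They also lay at *Mrpl47*, whose protein corresponds to bacterial L29 near the exit of the peptide tunnel, at *Mrpl32*, whose protein is processed by the m-AAA protease before it enters the ribosome, and at *Mrpl17*, *Mrpl18*, *Mrpl34*, *Mrpl36* and *Mrpl55*. The mitochondria-specific large subunit genes with a peak were *Mrpl38*, *Mrpl41*, *Mrpl43*, *Mrpl45*, which holds the ribosome at the inner membrane, *Mrpl48*, *Mrpl49*, *Mrpl50*, *Mrpl54* and *Mrpl57*. In the small subunit, peaks lay at *Mrps12* and *Mrps5*, whose bacterial counterparts act in the accuracy of decoding, at *Mrps7* and *Mrps9*, counterparts of proteins of the subunit head, and at *Mrps14*, *Mrps16* and *Mrps28*. *Mrps18b* and *Mrps27*, which encodes a pentatricopeptide repeat protein, were the mitochondria-specific small subunit genes with a peak. *Mrps36* also had one.

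The widest nearest peak belonged to *Mrpl47* (chr3:32736529-32737433), 905 bp wide with its edges at -286 and 618 bp from the TSS (negative values upstream). *Ndufb5*, which encodes a subunit of respiratory complex I, starts 20 bp inside *Mrpl47* on the other strand, and the same peak covered its start. The next widest, of 865 bp, was that of *Mrpl34* (chr8:71463237-71464101), and it lay entirely upstream, with edges at -1722 and -858 bp, over the start of *Abhd8*. At *Mrps14* (chr1:160194729-160195574) the peak of 846 bp spanned the TSS and no other protein-coding TSS lay within 1000 bp of it. The same was true of the 807 bp peak of *Mrpl38* (chr11:116138580-116139386) and the 766 bp peak of *Mrpl12* (chr11:120484371-120485136).

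At the narrow end stood *Mrps9* (chr1:42851260-42851493), whose peak of 234 bp was wider than only 0.258% of all peaks in the list. *Mrpl48* (chr7:100607675-100607935) followed with 261 bp and *Mrpl36* (chr13:73330993-73331285) with 293 bp. These last 2 were the genes whose peak was not near the representative TSS, that of the principal coding transcript. The *Mrpl36* peak covered an alternative start at position 73331026 and missed the representative start at 73328513, which lies 51 bp from the start of *Ndufs6*, another complex I gene. The *Mrpl48* peak lay 37 bp upstream of the start, at position 100607638, of a transcript without a coding sequence, and 59 bp from the next start, that of a coding transcript at 100607994, whereas the representative start was at 100583102. The *Mrps36* peak, 328 bp wide (chr13:100744231-100744558), and the *Mrpl49* peak, 361 bp wide (chr19:6057713-6058073), were the next narrowest.

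**Figure D1:**
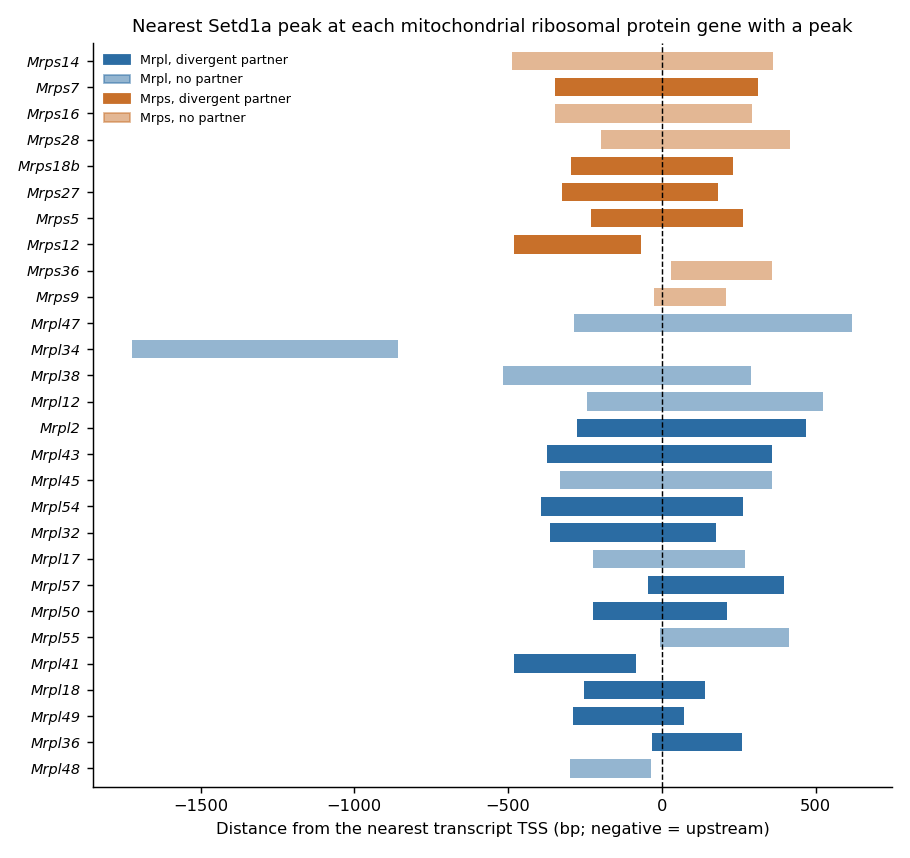
Extent of the nearest Setd1a peak at each of the 28 mitochondrial ribosomal protein genes with a peak, in bp from the nearest TSS of the gene (dashed line, negative values upstream), *Mrps* genes above and *Mrpl* genes below, each ordered by width. Full colour marks genes with a divergent protein-coding partner and pale colour those without, and 23 of the 28 bars cross the TSS, while *Mrpl34*, *Mrpl41*, *Mrpl48* and *Mrps12* lie upstream of it and *Mrps36* lies downstream.

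Width and position of the peaks were close to those at other genes. Across the 28 genes the nearest peak had a median width of 518 bp (quartiles 409 and 699 bp, range 234 to 905 bp), and across the 4682 protein-coding genes with a peak the median was 546 bp (quartiles 376 and 780 bp, maximum 3140 bp). No peak at a mitochondrial ribosomal protein gene reached 1000 bp, 0 of 28 with an upper limit of 12.1%, and 519 of the 4682 genes (11.1%) had such a peak. Where a peak overlapped several TSSs of a gene, its position was measured from the TSS nearest the peak's midpoint. Midpoints close to the TSS are thus partly built in, for both sets of genes. The median midpoint lay at -13.2 bp from the TSS (quartiles -76.6 and 99.0 bp), and at -13.0 bp over all genes with a peak (quartiles -154 and 92.0 bp). Of the midpoints, 16 of 28 (57.1%) were upstream, against 54.8% of all genes with a peak. The TSS was overlapped at 82.1% and 76.3%, respectively.

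Coverage by distance was set beside that over all genes at a few chosen positions, without intervals and without a test. At 500 bp upstream of the TSS the nearest peak covered the position at 3.57% of the 28 genes and 22.9% of all genes with a peak, and at 400 bp upstream at 14.3% and 35.4%. Closer in, at 200 bp upstream, coverage was 75.0% and 65.3%. At 50 bp downstream it was 85.7% and 75.5%, at 300 bp downstream 39.3% and 40.5%, and at 500 bp downstream 7.14% and 15.3%. With 28 genes, each gene moves these shares by 3.57 percentage points.

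**Figure D2:**
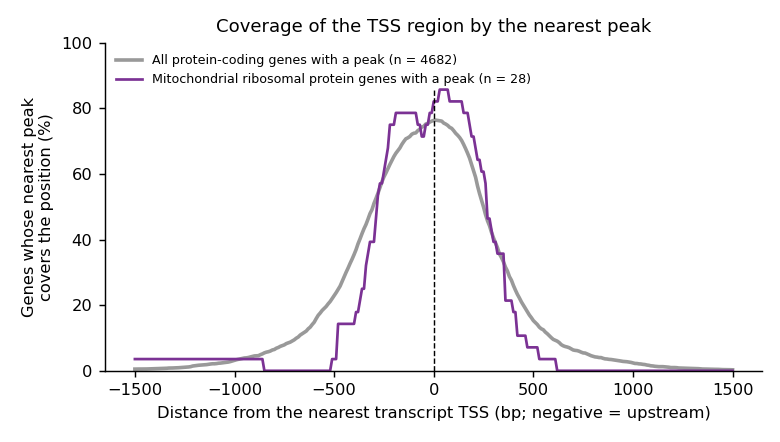
Share of genes, in percent, whose nearest Setd1a peak covers each position from the TSS, in bp with negative values upstream, for the 28 mitochondrial ribosomal protein genes with a peak (purple) and all 4682 protein-coding genes with a peak (grey). Both curves are highest near the TSS, in part because positions were counted from the TSS nearest the peak. The purple curve is the lower at 500 bp on either side, 3.57% against 22.9% upstream and 7.14% against 15.3% downstream. The purple step at the far left is *Mrpl34* alone.

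More than 1 peak within 1000 bp was found at 2 of the 28 genes (7.14%), against 6.92% of all genes with a peak. *Mrpl2* had a 746 bp peak over its TSS (chr17:46645993-46646738) and a 298 bp peak 693 bp upstream (chr17:46645239-46645536). *Mrpl48* had, beside its 261 bp peak, one of 703 bp on the other side of the same start (chr7:100606697-100607399), close to the start of *Rab6a*, a Golgi small GTPase gene. In total 30 distinct peaks lay at the 28 genes. Of the 15471 bp under the nearest peaks, 43.3% lay outside the mitochondrial ribosomal protein gene, 14.1% in its coding exons, 26.8% in other exonic sequence and 15.9% in introns, and 29.7% lay within another protein-coding gene, including bases where both genes overlap.

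A divergent partner, that is, a protein-coding TSS on the other strand at most 1000 bp upstream of the representative TSS, was present at 26 of the 78 genes (33.3%, 23.9–44.4%) and at 9.45% of all protein-coding genes. Of the 26, 15 had a peak (57.7%, 38.9–74.5%), against 52.4% of all genes with a partner. Of the 52 without a partner, 13 had a peak (25.0%, 15.2–38.2%), against 19.4% of all such genes. In both classes the interval for the mitochondrial ribosomal protein genes included the value for all genes. Counting partner starts within 1000 bp on either side gave 32 genes. Of the genes so added, which counted above as without a partner, only *Mrpl47* had a peak.

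At 14 of the 15 genes with a peak and a partner, the peak also lay within 1000 bp of the TSS of the partner, the exception being *Mrpl36* at its alternative start. At 10 it covered the whole stretch between both start sites. Such a peak cannot be given to one of the genes rather than the other. The *Mrpl43* peak (733 bp, chr19:45006062-45006794) covered the 116 bp to the start of *Twnk*, the mitochondrial DNA helicase. The *Mrps27* peak (508 bp, chr13:99344462-99344969) covered the 81 bp to *Ptcd2*, which encodes a mitochondrial RNA processing protein. The *Mrps18b* peak (528 bp, chr17:35916158-35916685) covered the 45 bp to *Ppp1r10*, which encodes a regulatory subunit of protein phosphatase 1.

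The other peaks that covered both starts were at *Mrpl54* and *Apba3*, 26 bp apart (656 bp, chr10:81266672-81267327), and at *Mrps7* and *Gga3*, 32 bp apart (660 bp, chr11:115603577-115604236). *Mrpl18* shared its peak (393 bp, chr17:12916062-12916454) with *Tcp1*, a subunit of the cytosolic chaperonin, 37 bp away. *Mrpl32* shared its own (541 bp, chr13:14612990-14613530) with *Psma2*, a proteasome subunit gene 75 bp away. *Mrpl49* shared its peak with *Fau*, which encodes a ribosomal protein of the cytosolic small subunit fused to a ubiquitin-like domain and starts 59 bp away. *Mrpl50* and *Zfp189*, a zinc finger gene, lay 83 bp apart under a 436 bp peak (chr4:49520881-49521316), and *Mrpl2* and the kinesin light chain gene *Klc4* lay 207 bp apart.

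The 4 remaining shared peaks reached 1 of the start sites or lay beside them. The *Mrps12* peak (413 bp, chr7:28741889-28742301) began 69 bp upstream of its TSS and covered the start of *Sars2*, the mitochondrial seryl-tRNA synthetase gene 172 bp away. The *Mrpl41* peak (397 bp, chr2:24975183-24975579) began 85 bp upstream and lay between *Mrpl41* and *Pnpla7*, whose start was 935 bp away. At *Mrps5* (493 bp, chr2:127587189-127587681, partner *Zfp661* at 128 bp) the peak covered a start of *Mrps5* and part of the stretch between the genes. At *Mrpl57* (443 bp, chr14:57826385-57826827, partner *Ska3* at 49 bp) it covered an alternative start of *Mrpl57* at position 57826430. It missed the representative start and the whole stretch to *Ska3*.

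With *Mrpl47*, *Mrpl34* and *Mrpl48*, the peaks of 17 of the 28 genes lay within 1000 bp of the TSS of another protein-coding gene, and over all genes with a peak this held for 30.1%. The 11 genes whose peak reached no other protein-coding TSS were *Mrpl12*, *Mrpl17*, *Mrpl36*, *Mrpl38*, *Mrpl45*, *Mrpl55*, *Mrps9*, *Mrps14*, *Mrps16*, *Mrps28* and *Mrps36*. Peaks at genes with a partner were 493 bp wide at the median with the midpoint at -32.5 bp, and 11 of 15 midpoints were upstream. Peaks at genes without a partner were 640 bp wide at the median with the midpoint at 22.0 bp, and 5 of 13 were upstream. When each peak was given to the nearest gene only, *Mrpl32*, *Mrpl34*, *Mrpl47*, *Mrpl48*, *Mrpl49*, *Mrpl54*, *Mrps7*, *Mrps12*, *Mrps18b* and *Mrps27* lost theirs to the neighbour.

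A divergent arrangement was not always accompanied by a listed peak. Next after the 26 bp of *Mrpl54* and *Apba3*, the shortest distance of the 26 genes and one under a peak, came 29 bp at *Mrps34* with *Eme2* and at *Mrps18c* with *Helq*, and both of these had no peak, the nearest being 7969 and 279787 bp away. *Mrpl46* and *Mrps11*, a large and a small subunit gene that are partners of each other 30 bp apart on chromosome 7, had none within 89424 and 89584 bp. The other genes with a partner and no peak were *Mrpl14* (*Tmem63b*, 63 bp), *Mrpl30* (*Mitd1*, 66 bp), *Mrpl27* (*Eme1*, 96 bp), *Mrpl37* (*Cyb5rl*, 120 bp), *Mrpl10* (*Lrrc46*, 153 bp), *Mrpl40* (*Hira*, 175 bp) and *Mrpl51* (*Ncapd2*, 464 bp). The peak nearest *Mrpl40* (chr16:18878021-18878350) lay beyond the *Hira* start at position 18877037 and within 1000 bp of it, so that *Hira* had a listed peak.

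Promoter composition also moved with the presence of a peak. CpG-rich promoters, defined as at least 55% GC and a CpG observed/expected ratio of at least 0.65 in the 1000 bp centred on the representative TSS, were found at 40 of the 78 genes (51.3%, 40.4–62.1%) and at 37.9% of all protein-coding genes. Of the 40, 21 had a peak (52.5%, 37.5–67.1%), against 42.8% of all CpG-rich genes. Of the other 38, 7 had a peak (18.4%, 9.22–33.4%), against 10.1%. Under a looser definition of at least 50% GC and a ratio of at least 0.60, 66 of the 78 genes were CpG-rich and the order turned, with a peak at 37.9% of them and at 40.1% of all genes so defined. The order among CpG-rich genes also turned when each peak was given to the nearest gene only, with 35.0% against 36.9%.

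Where both features were combined, 12 of 18 genes with a CpG-rich promoter and a partner had a peak (66.7%, 43.7–83.7%), against 60.5% of all genes of this class. With a CpG-rich promoter and no partner, 9 of 22 did (40.9%, 23.3–61.3%), against 39.2%. With a partner and no CpG-rich promoter it was 3 of 8 (37.5%), against 36.0%, and with neither 4 of 30 (13.3%), against 8.77%. The shares thus rose in the same order of classes in the mitochondrial ribosomal protein genes and in all genes, and in each of the 4 classes the interval of the former included the latter.

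**Figure D3:**
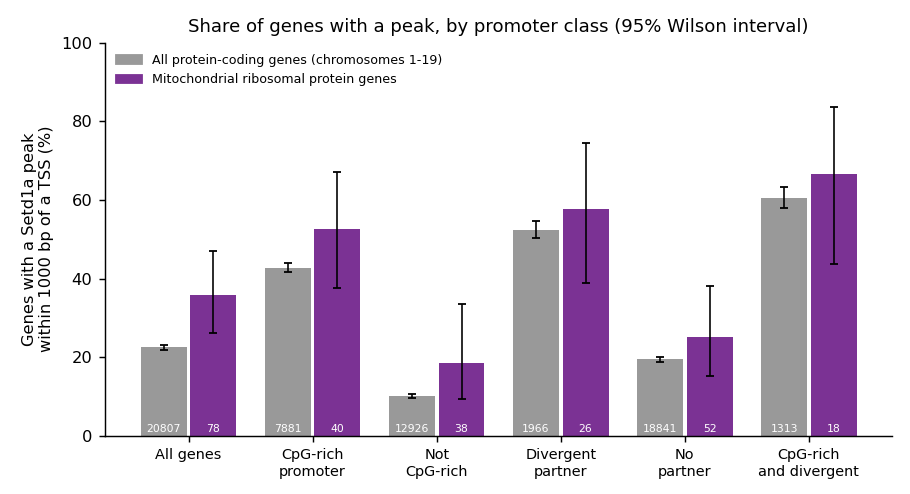
Share of genes with a Setd1a peak within 1000 bp of a TSS, in percent with 95% Wilson intervals over genes, for all protein-coding genes of chromosomes 1 to 19 (grey) and the mitochondrial ribosomal protein genes (purple), in all and by promoter class, with the number of genes at the foot of each bar. The purple bar is the taller in all 6 classes, 35.9% against 22.5% over all genes and 66.7% against 60.5% for CpG-rich genes with a partner, and its interval includes the grey value in the 5 classes other than all genes.

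The median GC content was 58.2% and the median CpG ratio 0.75 at the 28 genes with a peak, and 53.8% and 0.71 at the 50 without. Over all protein-coding genes the medians were 61.2% and 0.79 with a peak and 53.6% and 0.44 without. The mitochondrial ribosomal protein genes without a peak thus had CpG ratios close to those with one, whereas over all genes the medians lay further apart. *Mrps9* had a peak at a ratio of 0.50 and *Mrpl48* at 47.0% GC, the lowest of each among the genes with a peak.

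**Figure D4:**
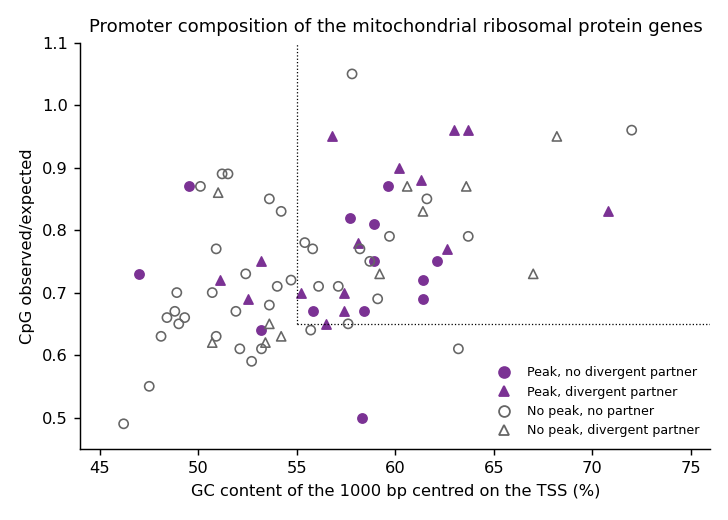
CpG observed/expected ratio against GC content in percent of the 1000 bp centred on the representative TSS, 1 symbol for each of the 78 mitochondrial ribosomal protein genes, filled where it had a Setd1a peak and triangular where it had a divergent protein-coding partner. Dotted lines mark 55% GC and a ratio of 0.65, and the CpG-rich corner at the upper right holds 21 of the 28 filled symbols and 19 of the 50 open ones.

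Short promoter strings were counted from 250 bp before to 50 bp after the representative TSS, on both strands. The ETS string CCGGAAG was present at 29 of the 78 genes (37.2%), at 11.5% of all protein-coding genes and at 18.5% of the CpG-rich ones. It occurred at 10 of 28 genes with a peak and 19 of 50 without, 35.7% and 38.0%. The YY1 string AAGATGGC was present at 11 genes (14.1%) against 3.10% of all, of which *Mrpl32*, *Mrpl36*, *Mrps12*, *Mrps18b* and *Mrps27* had a peak and *Mrpl37*, *Mrpl42*, *Mrps10*, *Mrps11*, *Mrps18a* and *Mrps24* did not. NRF1, a known activator of nuclear genes for mitochondrial proteins, recognises the string GCATGCGC, which was present at 8 genes (10.3%) against 3.50% of all, 4 with and 4 without a peak. *Mrps18b* held the ETS, NRF1, YY1 and SP/KLF strings together.

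The SP/KLF string GGGCGG was present at 37 genes (47.4%), against 46.2% of all and 77.8% of CpG-rich genes, and at 16 of 28 with a peak and 21 of 50 without. The CCAAT box occurred at 27 genes (34.6%) against 38.2%, the E-box at 4 (5.13%) against 7.83% and the THAP11/ZNF143 string at 6 (7.69%) against 3.87%. None of the 7 strings divided the genes with a peak from those without.

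The 50 genes without a peak differed widely in their distance from the nearest one. Across all 78 genes the median distance from a TSS to the nearest peak was 12864 bp, against 49574 bp over all protein-coding genes, and 44 of the 78 were more than 10 kb and 14 more than 100 kb away. Just inside the limit of 1000 bp lay *Mrpl34* at 858 bp and just outside it *Mrpl40* at 1159 bp, the gene whose stretch to *Hira* is printed above. *Mrpl35* came next at 3824 bp, followed within 10 kb by *Mrpl20*, *Mrps34*, *Mrps17* and *Mrpl58*, which encodes a peptidyl-tRNA hydrolase built into the ribosome. No gene other than *Mrpl40* was gained when the limit was widened to 3000 bp.

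Between 10 and 50 kb from the nearest peak lay *Mrps21*, *Mrpl37*, *Mrps15*, *Mrps31*, *Mrpl42*, *Mrpl24*, *Mrpl19*, *Mrpl21*, *Mrpl51*, *Mrpl30*, *Mrps24*, *Mrpl4*, *Mrpl53*, *Mrpl28*, *Mrpl9*, *Mrps18a*, *Mrpl11*, *Mrps22*, *Mrpl39*, *Mrpl33*, *Mrpl22* and *Mrpl44*, from 10154 bp at *Mrps21* to 47069 bp at *Mrpl44*. *Mrpl11*, whose bacterial counterpart forms the base of the stalk, and *Mrpl22* and *Mrpl24*, whose counterparts line the peptide tunnel, were among them. Between 50 and 100 kb lay *Mrps2*, *Mrpl10*, *Mrpl15*, *Mrps25*, *Mrps23*, *Mrpl46*, *Mrps11* and *Mrpl52*, from 57146 bp at *Mrps2* to 90413 bp at *Mrpl52*. Beyond 100 kb lay *Mrpl14*, *Mrps26*, *Mrps10*, *Mrpl16*, *Mrpl23*, *Mrps33*, *Mrps18c*, *Mrps6*, *Mrpl27*, *Mrps35*, *Mrps30*, *Mrpl3*, *Mrpl13* and *Mrpl1*, from 100959 bp at *Mrpl14* to 787119 bp at *Mrpl1*. *Mrpl12* and *Mrpl10*, whose bacterial counterparts together build the stalk, thus differed, with a peak over the TSS of *Mrpl12* and none within 63211 bp of *Mrpl10*.

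The genes are scattered over 17 of the 19 autosomes, with none on chromosomes 12 and 18. Chromosome 11 held 11, of which 5 had a peak (*Mrpl12*, *Mrpl38*, *Mrpl45*, *Mrpl55* and *Mrps7*), chromosome 13 held 5, of which 4 did, and chromosome 17 held 8, of which 3 did. None of the 7 genes on chromosome 6, the 4 on chromosome 5, the 3 each on chromosomes 9 and 16 and the 1 on chromosome 15 had a peak. These counts are too few to compare chromosomes.

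Other nuclear genes of mitochondrial translation, and genes that express or replicate mitochondrial DNA, were likewise counted from a list grouped by role. Of these, 30 of 74 had a peak (40.5%, 30.1–51.9%), against 22.5% of all protein-coding genes. Of 5 genes for mitochondrial ribosomal proteins with other symbols, 4 had a peak (80.0%, 37.6–96.4%), *Dap3*, *Ptcd3*, *Chchd1* and *Aurkaip1*, and *Gadd45gip1* did not. Of 22 genes for rRNA modification and ribosome assembly, 10 did (45.5%, 26.9–65.3%). Among them were *Eral1*, a chaperone of the small subunit rRNA, *Tfb1m*, which methylates it, and *Mtg1* and *Mtg2*, GTPases of large subunit assembly. The others were *Dhx30*, *Noa1*, *Mterf3*, *Mettl15*, *Mettl17* and *Ngrn*. Of 14 genes for transcription, replication and processing of mitochondrial nucleic acids, 8 did (57.1%, 32.6–78.6%). They were the RNA polymerase *Polrmt*, its cofactor *Tfb2m*, *Lrpprc*, *Elac2*, the DNA polymerase *Polg*, *Twnk*, *Supv3l1* and *Mterf2*.

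At the genes of the translation cycle itself, the intervals of the shares included that of all protein-coding genes, 22.5%. Of 11 initiation, elongation, termination and recycling factors, 2 had a peak, the elongation factor *Tufm* and the release factor *Mtrf1l* (18.2%, 5.14–47.7%). Of 17 mitochondrial aminoacyl-tRNA synthetases, 5 did, *Ears2*, *Fars2*, *Hars2*, *Sars2* and *Wars2* (29.4%, 13.3–53.1%), and of 5 activators and insertion factors 1 did, *Letm1*. The intervals of all 6 roles overlapped, and the peaks at *Twnk* and *Sars2* included those shared with *Mrpl43* and *Mrps12*.

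For scale, the genes for cytosolic ribosomal proteins and the nuclear genes for oxidative phosphorylation subunits, both chosen by symbol, were counted alongside. A peak lay at 35 of 76 cytosolic ribosomal protein genes (46.1%, 35.3–57.2%) and at 39 of 82 oxidative phosphorylation genes (47.6%, 37.1–58.2%), and both intervals overlapped that of the mitochondrial ribosomal protein genes. The promoters differed in kind, as 71.1% of the cytosolic ribosomal protein genes were CpG-rich and 14.5% had a divergent partner, while 51.3% and 33.3% of the mitochondrial ribosomal protein genes did. Of the oxidative phosphorylation genes, 47.6% were CpG-rich and 28.0% had a partner. The rRNA genes of the mitochondrial ribosome, *mt-Rnr1* (955 bp) and *mt-Rnr2* (1582 bp), lay wholly within listed intervals on the mitochondrial genome, which is present in many copies per cell and carries no histones.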

How the data were processed

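Setd1a CUT & RUN was measured in 2 libraries of WT quiescent adult NSCs, with 1 IgG library. From trimmed reads mapped to mm10 the authors called peaks in each replicate and deposited those found in both as 1 list, whose values are positions in bp (chromosome, start and end). The submitters' processing notes name bcl2fastq 2.17.1.14, Trimmomatic 0.32, Bowtie2 2.1.0, SAMtools 0.1.18 and MACS2 2.2.8. Whether the IgG library entered peak calling, and by what overlap peaks were matched between replicates, is not given in the sources used here. Positions were read as starting from 1, and all peaks lay within the reference chromosomes.

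Peaks were set against GENCODE M21 transcripts of GRCm38 with Python 3.11.15, numpy 2.4.6, scipy 1.17.1 and pysam 0.24.0, and figures were drawn with matplotlib 3.10.9. The representative TSS was that of the APPRIS principal coding transcript, then of the longest coding transcript. No test was run, because 1 combined list has no replicates, and genes are not replicates. The placement of peaks was tested on simulated intervals, of which 1800 of 1800 were classed as placed. Alternatives covered the window, the TSSs counted, the assignment of shared peaks, the minimum width, and the definitions of partner and CpG-rich promoter. All mitochondrial ribosomal protein genes could be named, and those with the 5 widest and 5 narrowest peaks, with several or shared peaks, or nearest the 1000 bp limit were described with coordinates; the other lists were named where they had a peak. The genes, lists and rules were chosen with earlier results of these data known.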

Additional observations from a re-analysis of the deposited data

How the results depend on the processing

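Of 41 values recomputed under another setting, 26 stayed near the reported one, counts and the median width within 1.5 times and shares within their 95% Wilson interval, and 15 moved further. Across windows from 0 to 3000 bp, other sets of TSSs and a minimum width of 300 bp, 23 to 29 mitochondrial ribosomal protein genes had a peak, against 28. Giving each peak to the nearest gene only left 18, of which 6 were *Mrps* genes. Counting only peaks of at least 500 bp left 16, 10 *Mrpl* and 6 *Mrps*, and lowered the share of all protein-coding genes to 12.8%. That share, 22.5%, was 17.2% for peaks over a TSS, 21.8%, 23.3% and 24.1% for windows of 500, 2000 and 3000 bp, 20.8% for 1 TSS per gene, 19.3% for the nearest gene only and 19.9% for peaks of at least 300 bp. The looser CpG definition raised the CpG-rich genes from 40 to 66. Leaving out the genes with a divergent partner, an alternative chosen after seeing the data, gave 25.0% in place of 35.9%. No paired analysis was possible because both replicates are merged in the intervals. For the same reason no replicate could be left out. The list holds no height or read depth, so weak binding cannot be told from none, and a share from 78 genes has an interval of about 10 percentage points on either side.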
